A study of Saccharomyces cerevisiae with 6 samples.

Results

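Cell wall mannoprotein genes were examined across 6 cultures of budding yeast, 3 carrying the prion [GAR+] and 3 [gar-] cultures without it. The set comprised 10 listed genes among the 5656 measured genes, each represented by 1 probe set, and was split into 5 genes whose wall proteins serve growth in air (TIP1, CWP1, CWP2, SED1 and CCW12) and 5 known for growth without oxygen (TIR1, TIR2, TIR3, TIR4 and DAN1). A prion is a protein-based element that is inherited without a change in DNA, and cells with [GAR+] can use other carbon sources although a glucose mimic is present. All cultures were of W303, a common laboratory strain, in complete synthetic medium with 2% glucose, and were harvested at an OD600 of about 0.8. Each culture's poly(A) RNA was hybridised to 1 Affymetrix array. The labels number the cultures 1, 2 and 3 in each group without saying what a number shares, and give no oxygen measurement.

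The yeast wall has an inner layer of glucan and chitin and an outer layer of heavily glycosylated mannoproteins, most of which reach the wall on a glycolipid (GPI) anchor and are then linked to glucan. The mannoproteins are exchanged with growth conditions. In air Cwp1 and Cwp2 are prominent, while without oxygen the DAN and TIR genes are switched on and CWP genes are turned down, under the activator Upc2 and repressors such as Rox1 and Mot3. TIP1 and TIR1 were also found as genes induced by cold. Whether a gene lies in the aerobic or the anaerobic class is taken here from general knowledge of the genes and not from the arrays. The background above does not itself place SED1, CCW12 or TIP1, and the class of TIP1 is uncertain.

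Levels are array signals after quantile normalization, which gives all 6 arrays the same distribution, since the arrays as deposited had trimmed means from 192 to 500. Differences between groups are [GAR+] minus [gar-] in log2(signal + 16), where the added 16 pulls the differences of dim genes towards 0. Signals of different genes come from different probes and are not set against each other. The highest of 16 control probe sets for sequences not present in yeast RNA read 12.7 to 27.6 per array. Except for DAN1, every member read above that control on all 6 arrays. HXT3, a glucose transporter gene, was the only tested probe set that passed between the groups, with a mean signal of 59.0 ± 16.3 in [GAR+] and 4103 ± 473 in [gar-] cultures (SD, n = 3 each). The summed signal of 6 markers of mating type a was 6411 to 8518 in [GAR+] and 5334 to 6767 in [gar-] cultures, with all 6 above the controls on every array. That of 4 markers of mating type alpha was 108 to 138 in [GAR+] and 103 to 116 in [gar-] cultures, with 1 of 4 above the controls on every array. For 9 markers of sporulating cells it was 103 to 111 in [GAR+] and 86.0 to 120 in [gar-] cultures, with 0 of 9 above the controls on every array.

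None of the 10 mannoprotein genes passed between [GAR+] and [gar-] cultures at an adjusted p under 0.05 in limma, where 0.0154% of all 6504 tested probe sets passed. At an unadjusted p under 0.05 the count was 0 of 10, against 2.98% of all probe sets. In no member did the groups separate without overlap, against 8.86% of all probe sets. The median difference was -0.09 over the 9 members above the controls, -0.09 over the 5 aerobic genes, -0.13 over the 4 TIR genes and 0.01 over all tested probe sets. Of all 6504 tested probe sets, 3366 lay above 0 and 3138 below. Among these 9 members the difference lay above 0 in 3 and below 0 in 6, 4 of which (TIP1, CWP2, SED1 and TIR4) lay above 0 without between-array normalization, where the median of all probe sets was 0.16. The 95% interval of the fold difference lay within 2-fold in either direction for 8 of these 9 members and for 96.1% of all probe sets, the exception being TIP1. With the culture number as a block it did so for 9 of 9 members and for 98.5% of all probe sets.

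**Figure D1:**
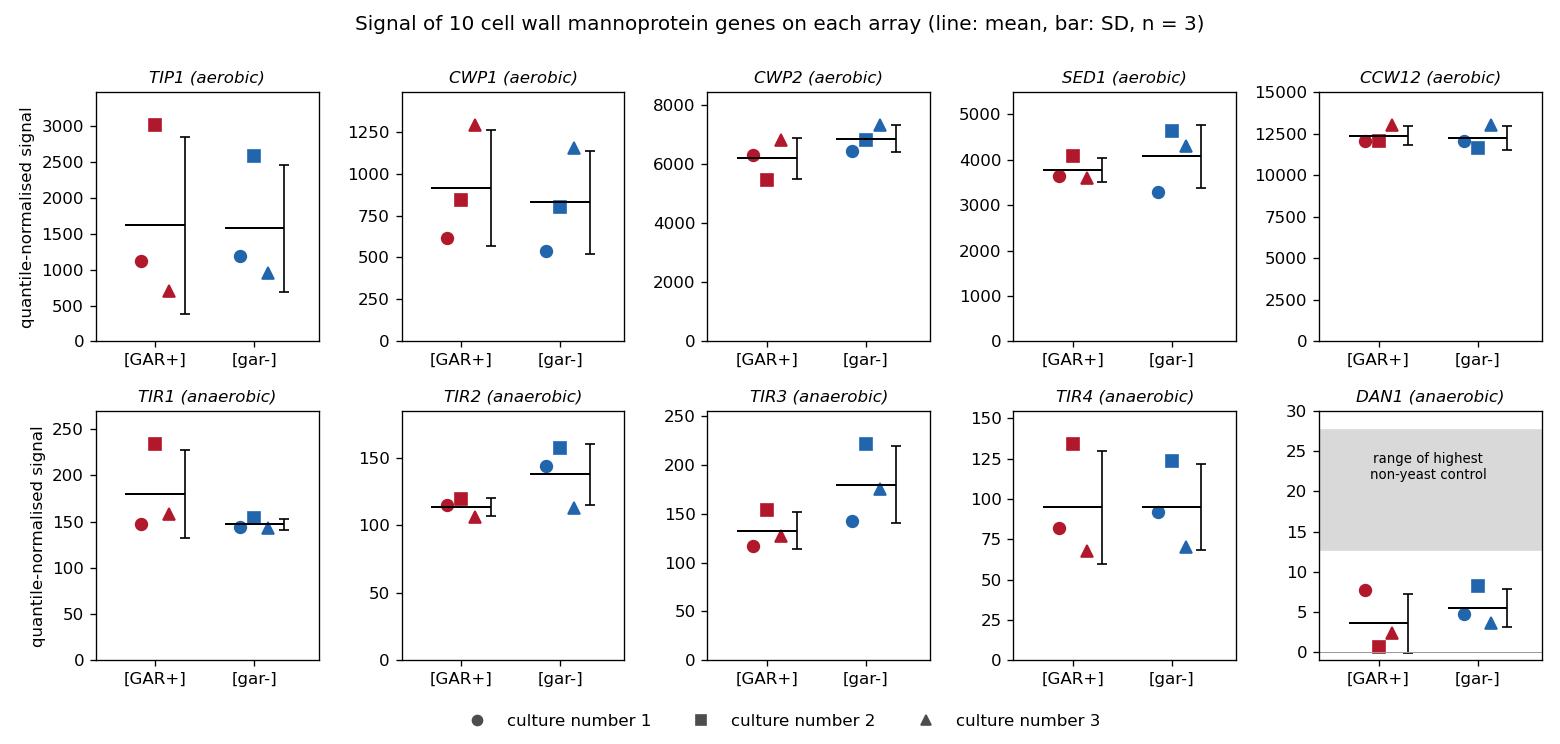
Quantile-normalised signal (vertical axis, linear) of each member in [GAR+] and [gar-] cultures, 1 point per array, with the culture number as the symbol, the mean as a line and the SD as a bar (n = 3). The groups overlap in every panel, TIP1 is highest in both cultures numbered 2, and all 6 DAN1 values lie below the grey band, which spans the brightest non-yeast control of each array.

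Among the aerobic genes, CCW12 encodes an abundant small mannoprotein needed for a normal wall in growing cells. It read 12063, 12063 and 13065 in [GAR+] cultures 1, 2 and 3, against 12063, 11652 and 13065 in [gar-] cultures. Quantile normalization sets each value by its rank on the array. The CCW12 probe set was among the 3 brightest on every array, and equal ranks there gave the tied values above. Small differences in its signal are therefore not resolved. The difference was 0.02 with a standard error of 0.08. CWP2 encodes a major small wall mannoprotein. Its signal was 6306, 5441 and 6807 in [GAR+] cultures and 6421, 6807 and 7324 in [gar-] cultures. At each culture number it was lower in [GAR+], with a fold of 0.901 and a 95% interval of 0.759 to 1.07 (limma adjusted p = 1.00). SED1, which encodes a wall protein known for its abundance in stationary cells, read 3654, 4074 and 3605 in [GAR+] cultures, against 3296, 4636 and 4302 in [gar-] cultures. The [GAR+] value was higher at number 1 and lower at numbers 2 and 3, and the fold was 0.935, with a 95% interval of 0.751 to 1.16.

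CWP1, the neighbour of CWP2 on chromosome XI with no gene between them, encodes another wall mannoprotein. Its signal was 615, 841 and 1292 in [GAR+] cultures 1, 2 and 3, and 538, 798 and 1150 in [gar-] cultures. The [GAR+] value was the higher one at each number, by 0.19, 0.07 and 0.17 on the log2 scale, and the groups overlapped widely because the signal differed more between numbers than between groups. The fold was 1.10, with a 95% interval of 0.680 to 1.79, which was 0.918 to 1.33 with the culture number as a block. TIP1, whose product is a wall mannoprotein of the same family as the TIR proteins, read 1126, 3023 and 703 in [GAR+] cultures, against 1190, 2581 and 952 in [gar-] cultures. The fold between groups was 0.937, with an interval of 0.429 to 2.05, which was 0.746 to 1.18 with the culture number as a block.

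Of the anaerobic genes, the 4 TIR genes were above the controls on all arrays and DAN1 on none. TIR3, one of the TIR genes needed for growth without oxygen, had the largest difference of the set. It read 117, 154 and 127 in [GAR+] cultures 1, 2 and 3, against 143, 222 and 175 in [gar-] cultures. Each [GAR+] culture was lower than the [gar-] culture of its number, by -0.25, -0.49 and -0.41 on the log2 scale, while [GAR+] culture 2 read above [gar-] culture 1. The fold was 0.766, with a 95% interval of 0.565 to 1.04 and an unadjusted p of 0.0793 in limma. With the culture number as a block the unadjusted p was 0.0245, the smallest among the members and the only one under 0.05, where 6.78% of all probe sets were, with an interval of 0.614 to 0.957, and the adjusted p was 0.735.

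TIR2 gave 115, 119 and 106 in [GAR+] cultures, against 144, 157 and 113 in [gar-] cultures. It was lower in [GAR+] at each number, but [gar-] culture 3 lay below 2 of the [GAR+] values. The fold was 0.847, with an interval of 0.649 to 1.10. TIR1 had 148, 235 and 158 in [GAR+] cultures and 144, 154 and 143 in [gar-] cultures. Its [GAR+] value was higher at each number, and the difference of 0.56 at number 2 was larger than those of 0.03 and 0.12 at numbers 1 and 3. The fold was 1.18, with an interval of 0.873 to 1.60. TIR4, the neighbour of TIR2 on chromosome XV with no gene between them, read 82.2, 134 and 67.9 in [GAR+] cultures, against 91.9, 123 and 70.2 in [gar-] cultures. The fold was 0.985, with an interval of 0.663 to 1.46, which was 0.785 to 1.24 with the culture number as a block. DAN1, which is tightly repressed in air in textbook accounts, read 7.71, 0.619 and 2.42 in [GAR+] cultures, against 4.74, 8.20 and 3.61 in [gar-] cultures. All 6 values lie below the highest non-yeast control of their array, so no fold is given.

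The same direction at all 3 culture numbers was seen in 5 of 10 members (CWP1 and TIR1 higher, CWP2, TIR2 and TIR3 lower in [GAR+]), against 28.9% of all probe sets. The 2 higher and the 3 lower members compare with 15.4% and 13.5% of all probe sets. The TIR genes thus did not share a direction, with TIR1 at 0.24 and TIR2, TIR3 and TIR4 at -0.24, -0.38 and -0.02. None of these differences passed.

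**Figure D2:**
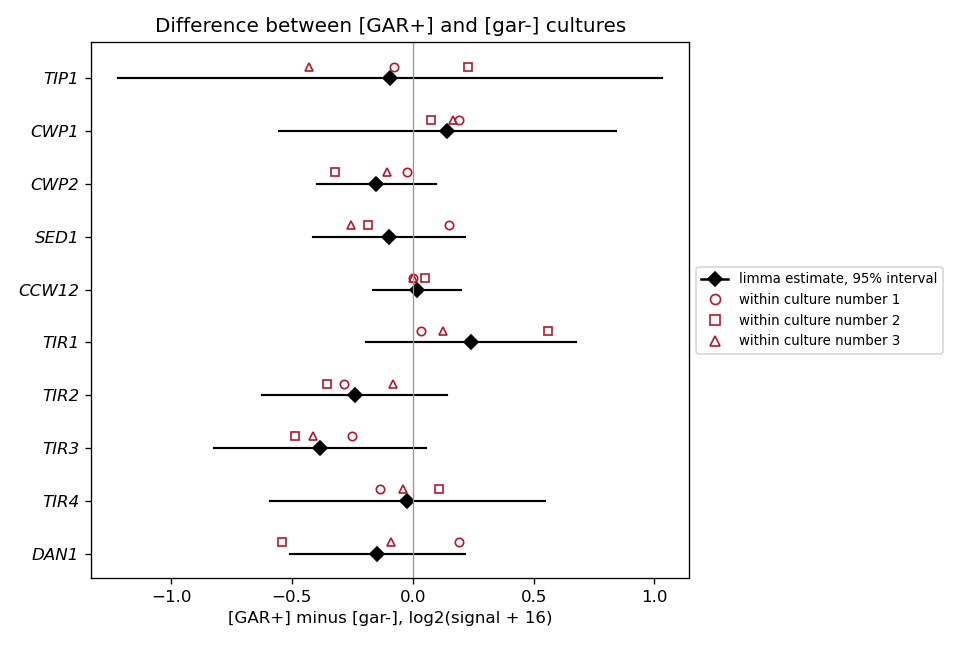
Difference between [GAR+] and [gar-] cultures in log2(signal + 16) for each member, as the limma estimate with its 95% interval (black) and as the difference within each culture number (open symbols). Every interval of this fit without the block includes 0, and TIR3 at -0.38 lies farthest from it. DAN1 is drawn although its signals lie below the controls.

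The culture numbers gave a different result. With the group as a covariate, the culture number passed in limma's F test for 2 of 10 members, TIP1 and CWP1, against 0.646% of all tested probe sets. Unadjusted, 3 of 10 members had a p under 0.05, against 16.1% of all probe sets. In TIP1 the mean signal was 1158 at number 1, 2802 at number 2 and 828 at number 3, so that the highest mean was 3.37 times the lowest on the log2(signal + 16) scale (adjusted p = 0.0224). Both cultures numbered 2 lay above the other 4 and both numbered 3 below. In RNA from whole cultures, a smaller share of cells with the transcript and less of it per cell cannot be told apart. For CWP1 the order was another one, with 576 at number 1, 820 at number 2 and 1221 at number 3, a 2.09-fold span (adjusted p = 0.0441). TIR4 had the order of TIP1, with 87.0, 129 and 69.1 and a 1.70-fold span, and did not pass (unadjusted p = 0.00676, adjusted p = 0.146). In these 3 genes the culture numbers did not overlap, as in 13.8% of all probe sets, and the order of TIP1 and TIR4, with number 2 above and number 3 below all other arrays, was found in 3.38%. That of CWP1, with number 3 above and number 1 below all others, was found in 0.938%.

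With any 1 array left out, the spread of TIP1 between number means was 1.54 to 1.96 in log2. Such a fit has a lone array at 1 number, so a call kept there is not read as support. The call for TIP1 was lost without between-array normalization (adjusted p of 0.912), over all yeast probe sets (0.0539) and with numbers 1 and 3 only (0.0743). Its spread between number means in log2 was 1.75, 1.60 without normalization, 1.75 over all yeast probe sets and 0.49 with numbers 1 and 3 only. The call for CWP1 was lost in the same way without normalization (0.912) and over all yeast probe sets (0.0784), with arrays scaled to a common mean (0.0553), without the intensity trend (0.0797), and without [GAR+] culture 1 (0.107) or 3 (0.184) or [gar-] culture 1 (0.103) or 3 (0.163). Under these settings its spread was 0.79 to 1.16, against 1.06. The spread of TIR4, which did not pass in the main fit, was 0.77 there and 0.82 without [gar-] culture 2. Of the 42 probe sets that passed, 34 were lowest and 6 highest at number 2. Since the labels do not say what same-numbered cultures share, day, medium, handling and array processing cannot be told apart.

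**Figure D3:**
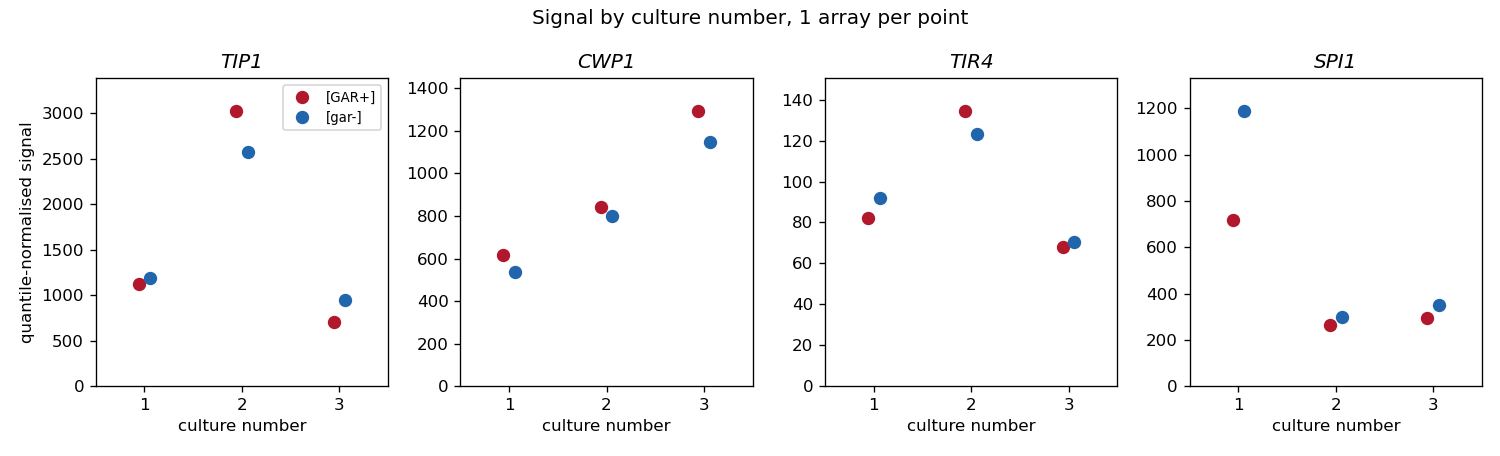
Quantile-normalised signal (linear axis from 0) of TIP1, CWP1, TIR4 and the wall protein gene SPI1 by culture number, 1 array per point, for [GAR+] and [gar-] cultures. The 2 arrays of a number lie close together for TIP1, CWP1 and TIR4, and the number with the highest signal is 2 for TIP1 and TIR4, 3 for CWP1 and 1 for SPI1.

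The remaining 7 members had spans between number means of 1.10-fold to 1.38-fold and did not pass, with adjusted p of 0.341 to 0.785. The upper value is that of DAN1, whose signals lie below the controls. Its spread depends on the added constant, with 0.22 in log2 here and 0.87 at a pseudocount of 1. TIR3 was the widest of the 7, at 130, 188 and 151 for numbers 1, 2 and 3. CWP2 had 6363, 6124 and 7065, a 1.16-fold span beside the 2.09-fold span of its neighbour CWP1. TIR2 had 130, 138 and 109, a 1.22-fold span beside the 1.70-fold span of its neighbour TIR4. The median spread between number means was 0.34 on the log2 scale over the members and 0.30 over all probe sets, and TIP1 had a wider one than 99.8% of all probe sets, CWP1 than 98.3% and TIR4 than 94.5%.

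**Figure D4:**
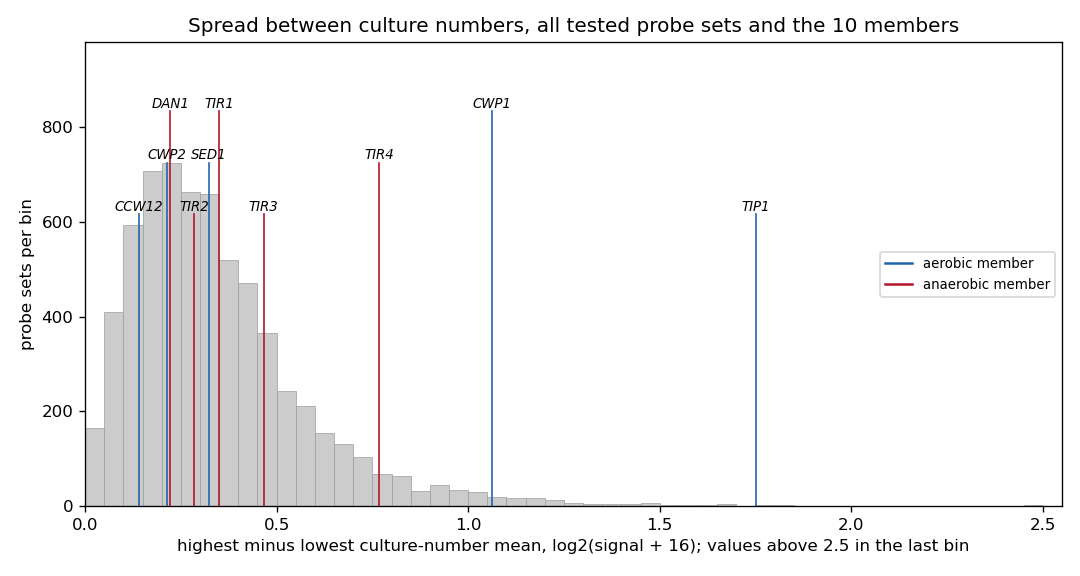
Histogram of the highest minus the lowest culture-number mean in log2(signal + 16) over the 6504 tested probe sets (grey, probe sets per bin), with the 10 members as lines, aerobic in blue and anaerobic in red. TIP1 (1.75), CWP1 (1.06) and TIR4 (0.77) lie in the upper tail, and the other 7 lie between 0.14 and 0.47. DAN1 is drawn although its signals lie below the controls.

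The balance of the classes was followed as the mean log2(signal + 16) of the 5 aerobic genes minus that of the 5 anaerobic genes on the same array. Only its change between arrays is read, since its level depends on the probes. It was 4.97, 5.11 and 5.19 in [GAR+] cultures 1, 2 and 3, against 4.83, 4.998 and 5.21 in [gar-] cultures. The groups overlapped, and the means were 5.09 ± 0.11 in [GAR+] and 5.02 ± 0.19 in [gar-] cultures (SD, n = 3 each), a difference of 0.07 that is smaller than either SD. The difference depends on the added constant and on DAN1, with 0.21 at a pseudocount of 1 and 0.03 at 64, and at a pseudocount of 1 it was 0.08 without DAN1. With TIP1 counted among the anaerobic genes the difference was 0.085, and with TIP1 left out it was 0.088. The balance was lowest at number 1 and highest at number 3 in both groups. The mean of the aerobic genes and that of the anaerobic genes were both highest at number 2 in each group. The aerobic genes did not share this peak. The number means of TIP1 and SED1 were highest at number 2, and those of CWP1, CWP2 and CCW12 at number 3. Of these 5 genes only TIP1 and CWP1 passed by culture number, and small differences in CCW12 are not resolved. Those of the TIR genes were all highest at number 2, but no TIR gene passed by culture number in the main fit. Only in TIR4 did both arrays of number 2 lie above the other 4, as in 17.0% of all probe sets. No test was made of the balance, because it summarises chosen genes.

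**Figure D5:**
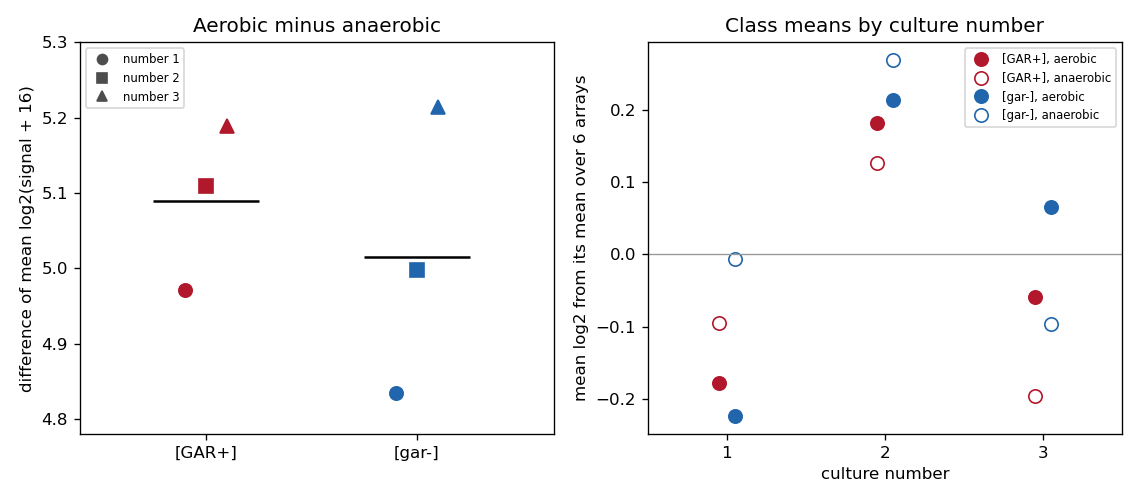
Left, mean log2(signal + 16) of the aerobic minus the anaerobic members on each array in [GAR+] and [gar-] cultures, with the group mean as a line and an axis that does not start at 0. Right, the mean of each class as its difference from its own mean over the 6 arrays, by culture number. The groups overlap on the left (4.97 to 5.19 in [GAR+], 4.83 to 5.21 in [gar-]). Both class means are highest at number 2 on the right, although the aerobic gene CWP1 was highest at number 3.

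No relative or regulator of the anaerobic genes passed between the groups in limma. Of 27 listed DAN and seripauperin (PAU) genes, small relatives of the TIR proteins, 11 had a probe set tied to 1 gene, 10 of them PAU genes with the array's suffix for sequences shared within a family. None passed in either test, and the median difference was -0.09. PAU23 averaged 97.7 in [GAR+] and 120 in [gar-] cultures (-0.26), and PAU13 averaged 108 in [GAR+] and 132 in [gar-] cultures (-0.25). At each culture number 4 of the 11 were lower in [GAR+] and 0 higher, against 13.5% and 15.4% of all probe sets. In 6 of the 11 both cultures numbered 2 lay above the other 4, against 17.0% of all probe sets, and since PAU probe sets can read each other's transcripts these are not independent. Only 7 of the 11 read above the controls on every array, and PAU3, PAU15, PAU17 and PAU19 did not. PAU3 is among the 4 lower genes, and PAU3 and PAU15 are among the 6 with number 2 above. Of 10 regulators of oxygen and sterol response, 0 passed in either test and the median was 0.06. UPC2, the activator of DAN and TIR genes, read 45.2, 40.1 and 39.3 in [GAR+] cultures, against 57.2, 66.4 and 35.0 in [gar-] cultures (a difference of -0.23), and HAP1, the haem-dependent activator of aerobic genes, gave 0.15. The HAP1 probe set carries the family suffix, and its other probe sets gave -0.15 and -0.10, so that the direction of HAP1 is not settled.

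Among 13 other hypoxic and anaerobic genes, 0 passed in either test, with a median of 0.01 and 7 above 0. FET4, a low-affinity iron transporter gene, averaged 455 in [GAR+] and 335 in [gar-] cultures (0.44, limma unadjusted p = 0.0884), and PDR11, a sterol uptake transporter gene, 32.6 in [GAR+] and 43.0 in [gar-] cultures (-0.28, unadjusted p = 0.0865). The order of TIP1 and TIR4 over the culture numbers was also present in 3 of the 13, HEM13, HMG2 and ANB1, against 3.38% of all probe sets, a choice made with their values in view. HEM13, a haem synthesis gene induced when oxygen is scarce, read 225, 245 and 111 in [GAR+] cultures 1, 2 and 3, and 205, 261 and 130 in [gar-] cultures. Its culture-number adjusted p was 0.0766. The list held no common order, since both cultures numbered 2 lay below the other 4 for COX5B and CYC7. COX5B, the hypoxic form of a cytochrome oxidase subunit gene, read 129, 63.96 and 204 in [GAR+] cultures 1, 2 and 3, and 175, 101 and 200 in [gar-] cultures, with a culture-number adjusted p of 0.0756.

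Other GPI-anchored wall proteins and enzymes numbered 25 measured genes. None passed between the groups, 19 lay above 0 and the median was 0.13, where 3366 of all 6504 tested probe sets lay above 0. Of the 25, 20 read above the controls on every array. The others, CRR1, FIT1, FLO1, FLO5 and FLO11, all counted among the 19. The culture number passed for 1 of the 25, SPI1, which encodes a wall protein induced under stress by weak acids. SPI1 read 717, 265 and 293 in [GAR+] cultures 1, 2 and 3, against 1187, 299 and 352 in [gar-] cultures, with a culture-number adjusted p of 0.0239. Both cultures numbered 1 lay above the other 4, as in 6.55% of all probe sets and in none of the members. The 5 PIR genes, whose wall proteins are linked to glucan without a GPI anchor, had a median of 0.11, and 0 passed in either test. PIR1 averaged 1691 in [GAR+] and 1445 in [gar-] cultures (0.22), and HSP150 3948 in [GAR+] and 3654 in [gar-] cultures (0.11).

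The gene with the largest spread over the arrays among members above the controls was TIP1. Compared over the 6 arrays as values centred on each gene's own mean, the nearest of 4537 other genes were IZH4, YGL039W, MGA2, SER3 and YIL067C, with root mean square differences from TIP1 of 0.18, 0.28, 0.31, 0.32 and 0.33 in log2, against a median of 0.76 over the genes compared. IZH4 read 177, 487 and 105 in [GAR+] cultures 1, 2 and 3, and 147, 353 and 176.5 in [gar-] cultures. These 5 genes shared the peak in both cultures numbered 2, which follows from picking them for nearness to TIP1 on the same arrays. None of the 5 passed the culture-number test, with adjusted p of 0.0756 to 0.121.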

How the data were processed

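Expression was measured on 6 Affymetrix yeast arrays, 1 per culture, from 2 µg of poly(A) RNA each, per the labels' protocols. The deposited values are linear signal intensities per probe set. MAS5 and GCOS are named in the submitters' processing notes. Neither their versions nor a scaling target or detection calls are stated. The arrays' trimmed means (2% removed at each end) differed up to 2.60-fold, so signals were quantile-normalised over all 9335 probe sets.

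Names came from the platform annotation of 2016. Of the probe sets, 6504 had 1 gene and were tested, 328 had several and 2503 were unnamed. All 6504 matched the R64 gene table by gene identifier and 0 symbols changed. Each member had 1 probe set. No reference sequence was used here. The 16 control probe sets are those for mouse genes, the trp gene and the antisense strands of bacterial and phage genes.

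Values were log2(signal + 16). Limma 3.58.1 in R 4.3.3 (lmFit, eBayes with intensity trend, two-sided) tested [GAR+] against [gar-], and culture number by an F test with group as covariate, with Benjamini-Hochberg adjustment over the 6504 probe sets and a threshold of 0.05. Precision is limited by having 3 arrays a group, with a median standard error of 0.18 for a difference. The steps were run on simulated data with planted changes and independent noise on each array. Those data lack the correlation between same-numbered arrays given below, so they do not show how the tests behave under it. With 3 against 3 an exact permutation test cannot give a p under 0.1, so none was run. After subtracting group means, arrays sharing a number correlated (r = 0.322, 0.347 and 0.346, each over 0.1). A fit with the culture number as a block was therefore added, on these data and not on the labels. The main test between groups and its intervals leave the block out. That cultures were grown separately is stated in the series' design.

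The members, the 10 gene lists, the 3 marker lists and the tests were chosen with earlier results of these data known. The text names all members, up to 4 passing genes of a list or else the 2 of smallest unadjusted p between groups, and the 5 genes nearest to the most variable member above the controls. Alternatives covered normalization, pseudocount (1 and 64), filtering, probe sets tested, trend, block, class of TIP1 and left-out arrays.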

Additional observations from a re-analysis of the deposited data

How the results depend on the processing

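Between [GAR+] and [gar-] cultures, 0 of 10 members and 1 probe set passed in every alternative. With the culture number as a replicate block no call changed, and the difference in class balance stayed at 0.07, since averaging within numbers gives the same value. Over the left-out arrays that difference ranged from -0.019 to 0.176. Leaving out DAN1 was chosen after seeing the data. Without between-array normalization the differences of TIP1, CWP2, SED1 and TIR4 turned to 0.084, 0.030, 0.085 and 0.122. That of DAN1, whose signals lie below the controls, was 0.051 without both arrays of culture number 2. With 1 array left out, both signs occurred for TIP1 (-0.672 to 0.362), CWP1 (-0.134 to 0.406), SED1 (-0.244 to 0.0064), CCW12 (-0.021 to 0.066) and TIR4 (-0.267 to 0.155), while TIR1, TIR2 and TIR3 kept their sign under every alternative.

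The culture-number test depended more on the settings. It called 2 members and 42 probe sets. Without between-array normalization it called 0 members and 2 probe sets, and over all yeast probe sets likewise 0 and 2. With arrays scaled to a common trimmed mean it called 1 member, without the intensity trend 1 member and 16 probe sets, and with numbers 1 and 3 only, an alternative chosen after seeing the data, 1 member (CWP1) and 101 probe sets. With a mean signal of at least 50 required, 100 probe sets passed. With 1 array left out, 1 to 3 members and 27 to 688 probe sets passed, and the lone array of a number was then taken to vary like the others. The cause was not tested.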

Other observations

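The machinery that builds, decorates and anchors the wall was measured on the same arrays, and no gene of these lists passed between [GAR+] and [gar-] cultures or by culture number in limma. Of 14 genes of glucan and chitin synthesis, 7 lay above 0 and the median difference was 0.0008. CHS2, the chitin synthase of the division septum, averaged 305 in [GAR+] and 252 in [gar-] cultures (0.26), and CHS3, which makes most of the wall chitin, 631 in [GAR+] and 549 in [gar-] cultures (0.19). Among 12 soluble glucanases and related wall enzymes the median was 0.02. SUN4, a gene of septum separation, read 1196, 1490 and 1395 in [GAR+] cultures, against 1236, 895 and 1032 in [gar-] cultures, a difference of 0.37 with an unadjusted limma p of 0.0469. SCW11, also of septum separation, gave 0.20.

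Of 16 genes of cell wall integrity signalling, 12 lay above 0 with a median of 0.07, where 3366 of all 6504 tested probe sets lay above 0. The kinase gene PKC1 averaged 143 in [GAR+] and 115 in [gar-] cultures (0.27), and the wall sensor gene WSC3 136 in [GAR+] and 114 in [gar-] cultures (0.22). Protein mannosylation had 19 measured genes with a median of 0.07. MNN1, a mannosyltransferase gene of the Golgi, gave 0.51 and read 148 in [gar-] culture 2 against 533 to 618 on the other arrays, and OCH1, which starts the outer mannan chain, gave -0.21. GPI anchor assembly and transfer had 19 genes with a median of 0.05. GPI16, a subunit gene of the enzyme that attaches the anchor, averaged 278 in [GAR+] and 345 in [gar-] cultures (-0.30), and GPI17, of the same enzyme, 240 in [GAR+] and 180 in [gar-] cultures (0.43), so that these subunit genes lay on opposite sides of 0. The low GPI17 mean of the [gar-] group includes 113 in culture 2, where cultures 1 and 3 had 226 and 202.

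The marker genes of smallest unadjusted p between the groups were MFA1, the a-factor gene, at 0.63 (0.43 by its other probe set) and AGA2 at 0.22 for mating type a, MF(ALPHA)1 and MF(ALPHA)2 for mating type alpha, and DIT1 and DIT2 for sporulation. None of these passed. No difference is given for the last 4, which read above the highest non-yeast control on 3, 3, 2 and 0 of 6 arrays.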
